A study of Mus musculus with 6 samples.

Results

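The transcription factor NRF2 (gene Nfe2l2), its inhibitor KEAP1 (Keap1) and a set of inducible detoxification genes were measured in mouse neural stem/progenitor cells (NSPCs). The 10 genes were chosen by name: Nfe2l2, Keap1, Mafg, Hmox1, Blvrb, Nqo1, Srxn1, Txnrd1, Abcc1 and Osgin1. All 10 were found, through their NCBI gene identifiers, among the 17254 genes listed in any library, and all 10 were among the 11717 genes tested, which had a mean of at least 1 FPKM (fragments per kilobase of transcript, scaled to library size) over the 6 libraries.

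RNA-seq was performed after 48 h on 2 libraries each of control NSPCs, NSPCs treated with paraquat (PQ, a redox cycler that generates superoxide; 5 µM in the label of 1 of the 2 libraries) and NSPCs treated with N-acetylcysteine (NAC, a thiol antioxidant; the labels give no dose, and the methods give 5 mM, with 5 µM for PQ). All libraries came from cells grown in N2 media with EGF and bFGF. The labels give the genotype Ink/Ark knockout and the strain C57BL/6 for control replicate 1 and PQ replicate 1, and neither for the other 4 libraries. Per the methods, all groups derive from a neonate-derived, immortalized Ink/Arf-/- culture, so the control cells carry the deletion as well, and this culture holds stem cells, neuronal precursors and oligodendroglial progenitors together. Library totals of expected counts were 9849392 and 10040827 for control, 10388731 and 9680436 for PQ, and 10698241 and 9907726 for NAC. The labelled preparation differed: control replicate 1 and PQ replicate 1 carry a NucleoSpin and Illumina label, whereas the other 4 libraries, both NAC libraries included, carry a TRIZOL and BGISEQ-500 label. NAC was therefore never prepared in the first way, and replicate numbers only name a library. Nothing in the labels says that the libraries came from separate cultures, so the p-values measure only the spread between these samples, which may be technical.

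Cdkn2a, the gene that encodes Ink4a and Arf, was detected in every library, at 137 and 162 counts in control, 120 and 130 in PQ, and 130 and 131 in NAC. A count over the whole gene includes exons that a deletion can leave in place, so these values check nothing about the knockout. Neural stem cell markers were abundant, with a summed level over 11 markers of 3417 and 3476 FPKM in control, 3738 and 3792 in PQ, and 2703 and 2622 in NAC. The most abundant of them was Vim (mean of 2073 FPKM), and Hes5 was at or under 3 counts in every library. Vim alone had 2171 and 2323 FPKM in control, 2547 and 2647 in PQ, and 1362 and 1389 in NAC, so the sums largely followed it. Oligodendroglial markers summed to 652 and 753 FPKM in control, 768 and 667 in PQ, and 816 and 926 in NAC, led by Olig1 (429 FPKM), while Sox10 and Mog were at or under 3 counts. Neuronal markers summed to 38.4 and 36.3 FPKM in control, 34.0 and 35.1 in PQ and 65.5 and 59.0 in NAC, nearly all of it Map2, with Rbfox3 and Stmn2 at or under 3 counts. Astrocyte markers summed to 136 and 132 FPKM in control, 165 and 176 in PQ and 113 and 112 in NAC, led by Gja1 (127 FPKM). Microglial markers reached at most 5.92 FPKM in sum, led by P2ry12 (2.25 FPKM), with 5 of 9 (Aif1, Csf1r, Ptprc, Tmem119 and Tyrobp) at or under 3 counts. Mesenchymal markers stayed at or below 3.03 FPKM in sum (led by Dcn; Pdgfrb and Lum at or under 3 counts), endothelial markers at or below 0.62 (led by Pecam1; Cldn5, Kdr and Cdh5 at or under 3 counts) and erythroid markers at or below 0.46 (led by Hba-a1), with all 5 of the last at or under 3 counts.

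Some of these markers moved with NAC in edgeR's quasi-likelihood test. In NAC against control, Vim was lower (log2 fold change -0.75, SE 0.08, adjusted p = 3.8e-06) and Aqp4 (1.76, SE 0.22, adjusted p = 1.4e-05), Gfap (1.23, SE 0.21, adjusted p = 0.00031) and Map2 (0.77, SE 0.10, adjusted p = 1.1e-05) were higher. Markers of the same list did not move together: of 6 astrocyte markers, 3 were called higher with NAC and 1 lower, the latter being Gja1, the most abundant (-0.43, SE 0.09, adjusted p = 0.0022). Of 9 neural stem cell markers tested, 1 was called higher and 3 lower against control, with PQ and also with NAC. Their median log2 fold change was -0.24 with PQ and 0.10 with NAC, opposite in direction to their summed levels. Map2 was the only neuronal marker tested, and Tubb3, which was not tested because its mean lay under the filter, had 2.38 and 1.30 FPKM in control, 0.72 and 0.47 in PQ, and 0.32 and 0.44 in NAC. These markers are named after their values were seen. The culture is a mixture, and in such bulk libraries fewer cells of a type and less RNA per cell cannot be told apart. The part of these shifts in the results on the 10 genes was not tested.

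KEAP1 holds NRF2 in the cytoplasm and hands it to a CUL3 ubiquitin ligase for degradation. When oxidants or electrophiles modify cysteines of KEAP1, newly made NRF2 escapes, enters the nucleus, pairs with a small MAF protein such as MAFG and binds antioxidant response elements (AREs) near genes of detoxification, heme breakdown and redox enzymes. Much of this control acts on NRF2 protein, which RNA-seq does not measure.

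Promoters of 4 of these genes are shown. Srxn1, Txnrd1 and Osgin1 were higher with PQ (Osgin1 only just, edgeR adjusted p = 0.049), and Nfe2l2 encodes the regulator itself. The sequences are from RefSeq (GRCm38.p6), cover the 250 bases before the annotated start, and run 5′ to 3′ on the strand of the gene, with matches to the ARE core TGACNNNGC or to the AP-1 site TGACTCA, on either strand, in capitals. The positions are chr2:75704664-75704913 on the minus strand for Nfe2l2, and, on the plus strand, chr2:152105274-152105523 for Srxn1, chr10:82858956-82859205 for the second of 3 starts of Txnrd1 and chr8:119436897-119437146 for Osgin1.
Nfe2l2: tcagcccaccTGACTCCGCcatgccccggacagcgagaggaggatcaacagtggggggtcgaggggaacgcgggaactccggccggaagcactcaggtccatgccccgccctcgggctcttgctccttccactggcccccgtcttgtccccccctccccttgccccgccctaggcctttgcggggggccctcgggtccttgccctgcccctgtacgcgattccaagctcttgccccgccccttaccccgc
Srxn1: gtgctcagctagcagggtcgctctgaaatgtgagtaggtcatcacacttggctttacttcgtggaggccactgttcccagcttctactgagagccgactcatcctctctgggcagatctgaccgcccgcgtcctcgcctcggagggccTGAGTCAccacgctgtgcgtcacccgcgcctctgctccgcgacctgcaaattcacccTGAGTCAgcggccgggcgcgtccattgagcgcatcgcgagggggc
Txnrd1: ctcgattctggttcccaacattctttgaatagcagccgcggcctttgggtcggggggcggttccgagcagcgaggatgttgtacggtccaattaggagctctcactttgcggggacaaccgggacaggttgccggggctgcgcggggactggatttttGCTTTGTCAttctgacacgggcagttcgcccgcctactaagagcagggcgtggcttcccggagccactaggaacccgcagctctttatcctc
Osgin1: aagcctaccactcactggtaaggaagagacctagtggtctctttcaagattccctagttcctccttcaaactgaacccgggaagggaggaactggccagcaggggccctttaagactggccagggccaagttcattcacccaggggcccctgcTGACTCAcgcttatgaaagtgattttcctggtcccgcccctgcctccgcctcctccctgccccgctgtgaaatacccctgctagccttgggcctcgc

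The search itself covered windows from 250 bases before to 50 bases after a start, and 8 of the 10 genes had 1 or more windows in the table, 11 in all (Hmox1 and Abcc1 had no entry). The ARE core was found in 4 of the 11 windows, those of Nfe2l2 (first base at -240 from the start, on the strand of the gene) and, all on the opposite strand, Mafg (-222), Srxn1 (29 bases after the start, outside the printed stretch) and Txnrd1 (-92). Over all 32851 promoter windows in the table, 12.4% held this core. The AP-1 site was found in Srxn1 (-102 and -45, both on the opposite strand) and Osgin1 (-97, on the strand of the gene), against 5.20% of all windows. The 2 motifs share their first 4 letters and can overlap, which they did in none of these windows. A match is a description of the letters and not evidence of binding. AREs outside these windows, and forms of the element with letters other than this core, were not searched.

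The levels of the 10 genes spanned a wide range on the per-length scale. Nfe2l2 was the most abundant, with a mean of 171.7 FPKM over the 6 libraries, above 96.9% of the genes tested. Txnrd1 (63.5 FPKM), Hmox1 (49.4), Blvrb (28.2), Srxn1 (20.6), Keap1 (16.4), Mafg (15.8) and Abcc1 (8.88) followed, and Nqo1 (2.28 FPKM, above 9.48% of the genes tested) and Osgin1 (1.55 FPKM, above 4.88%) were near the lower end. Across libraries, the ranges of Keap1 (15.2 to 18.1 FPKM) and Mafg (14.3 to 17.4) overlapped, as did those of Nqo1 (1.38 to 4.16) and Osgin1 (0.66 to 3.36), those of Txnrd1 (54.7 to 78.0) and Hmox1 (27.0 to 89.1), those of Blvrb (21.7 to 34.1) and Srxn1 (12.7 to 30.5), those of Hmox1 with Blvrb and with Srxn1, and those of Srxn1 with Keap1 and with Mafg. These ranges include the differences between treatments, and the order within these pairs was not tested. The order also depended on treatment: by group mean, Hmox1 ranked 3 in control, 2 in PQ and 4 in NAC.

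**Figure D1:**
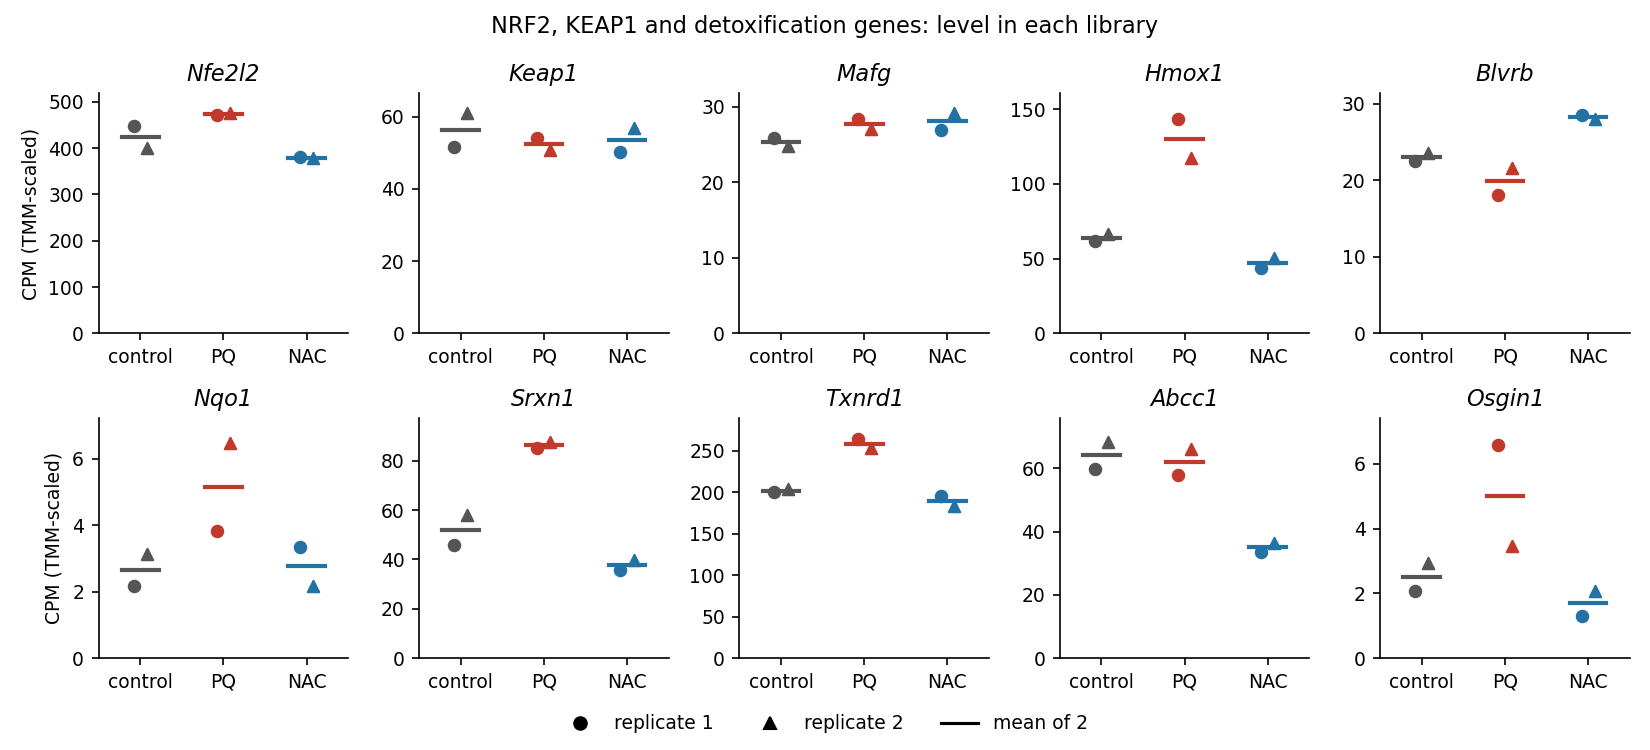
Level of each of the 10 genes in each library, as TMM-scaled counts (CPM, linear axis from 0); circles are replicate 1, triangles replicate 2 and lines the mean of 2. Hmox1 and Srxn1 lie highest in both PQ libraries and lowest in both NAC libraries, whereas Abcc1 is low in NAC alone (33.7 and 36.4 CPM against 57.9 or more elsewhere).

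With PQ, 4 of the 10 genes were called higher than in control (Hmox1, Srxn1, Txnrd1 and Osgin1) and 0 lower, where called means an adjusted p under 0.05 in edgeR over all genes tested. Of all 11717 genes, 19.2% were called in this comparison, 9.76% higher and 9.45% lower. For the direction with 0 calls, an unadjusted p under 0.05, DESeq2 and limma on log2(FPKM + 1) each gave 0 as well. The median log2 fold change of the 10 genes was 0.26, beside -0.001 for all genes. With NAC, 0 were called higher and 3 lower than in control (Abcc1, Srxn1 and Hmox1), where 18.7% of all genes were called, 9.01% higher and 9.64% lower. At an unadjusted p under 0.05 the count of higher genes was 1 in edgeR, and DESeq2 and limma called 0. The median was -0.13, beside -0.002 for all genes.

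Between PQ and NAC, 7 genes were called higher in PQ and 1 lower, where 31.6% of all genes were called, 16.0% higher and 15.7% lower. The median of the 10 genes was 0.64 (0 for all genes). The control libraries enter both comparisons with control, and the PQ and NAC libraries enter the third comparison again, so the 3 comparisons are not independent. Scaling by library totals alone, in place of TMM, moved the split of all genes called in NAC against control from 1056 higher and 1130 lower to 1337 and 946, that in PQ against control from 1143 and 1107 to 1281 and 974, and that in PQ against NAC from 1874 and 1834 to 1741 and 1967, so the larger side turned in both comparisons that include NAC.

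**Figure D2:**
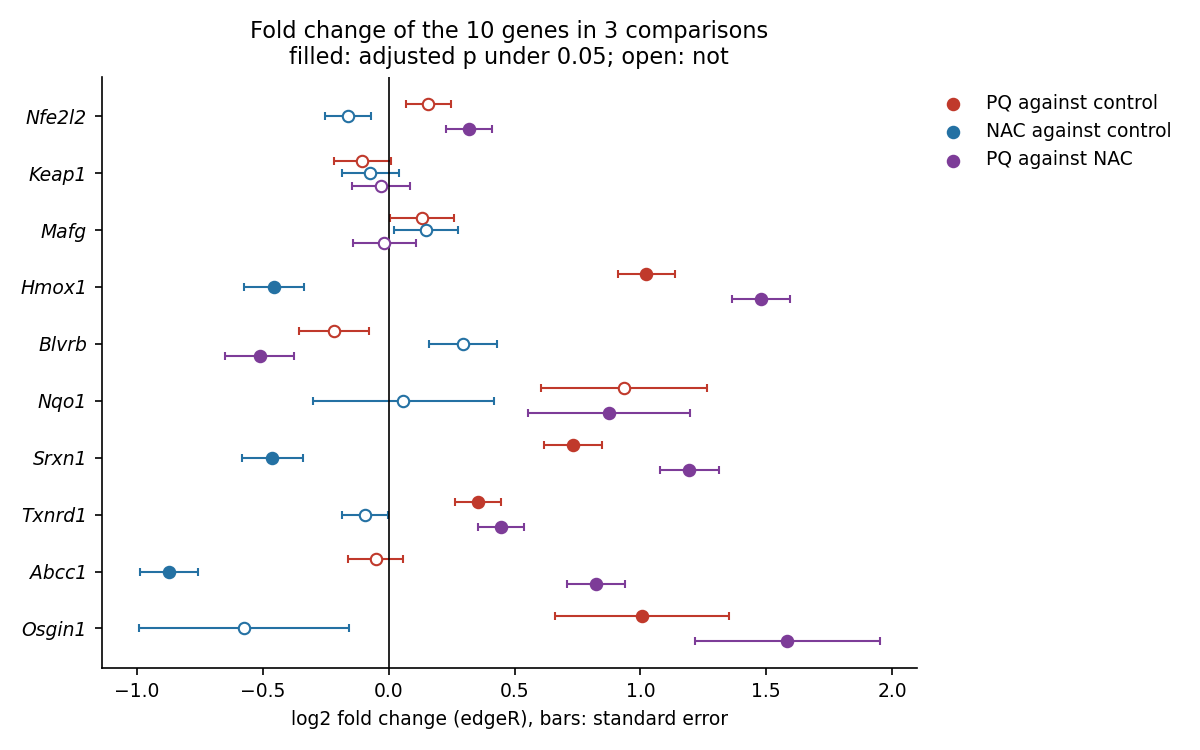
Log2 fold change of the 10 genes in PQ against control, NAC against control and PQ against NAC, with bars of 1 standard error from edgeR; filled points have an adjusted p under 0.05. Hmox1 (1.02, -0.45 and 1.48) and Srxn1 (0.73, -0.46 and 1.20) are filled in all 3 comparisons, and Keap1 and Mafg in none.

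The regulators moved little. Nfe2l2 (chr2:75513570-75542698 on mm9, minus strand) had 448 and 401 CPM in control, 472 and 475 in PQ, and 379.7 and 379 in NAC. Its PQ and NAC libraries lay on opposite sides of both control libraries, but neither difference from control passed the test: the log2 fold changes were 0.16 (SE 0.09, adjusted p = 0.24) and -0.16 (SE 0.09, adjusted p = 0.24). Between PQ and NAC, Nfe2l2 was 1.25-fold higher in PQ (log2 fold change 0.32, SE 0.09, edgeR adjusted p = 0.011). This call was lost when either PQ library or either NAC library was left out (adjusted p between 0.06 and 0.067), although the log2 fold change stayed between 0.32 and 0.33, and with the labelled preparation as a covariate (0.28, adjusted p = 0.071).

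Keap1 (chr9:21034174-21043776 on mm9, minus strand), which encodes the inhibitor, had 51.6 and 60.9 CPM in control, 54.1 and 50.7 in PQ, and 50.2 and 56.9 in NAC, and all 3 groups overlapped. Its log2 fold change was -0.10 in PQ against control (95% interval -0.33 to 0.12, adjusted p = 0.58 in edgeR) and -0.07 in NAC against control (-0.30 to 0.15, adjusted p = 0.71). An antisense gene, Gm16754, overlaps up to 206 bases of its exons, and whether counting used strand is not given for the deposited tables. Mafg (chr11:120486431-120494914 on mm9, minus strand), a small MAF partner of NRF2, had 25.8 and 24.8 CPM in control, 28.4 and 27.1 in PQ, and 26.9 and 29.2 in NAC. All 4 treated libraries were above both controls, by log2 fold changes of 0.13 (95% interval -0.12 to 0.38, adjusted p = 0.52) with PQ and 0.15 (-0.10 to 0.40, adjusted p = 0.46) with NAC, which edgeR did not separate from the spread. Mafg shares up to 124 exonic bases with Sirt7 on the same strand. The FPKM of Nfe2l2 was between 8.85 and 12.4 times that of Keap1 in the same library.

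Hmox1 (chr8:77617490-77624495 on mm9, plus strand) encodes heme oxygenase 1, the inducible enzyme that opens the heme ring and releases iron, carbon monoxide and biliverdin. It had 595 and 656 counts in control, 1503 and 1121 in PQ, and 468 and 506 in NAC. The 3 groups did not overlap, with PQ highest and NAC lowest. PQ raised Hmox1 2.03-fold over control (log2 fold change 1.02, SE 0.11, edgeR adjusted p = 7.3e-06; 64.1 ± 3.08 against 130.3 ± 18.7 CPM, SD, n = 2). The difference within a labelled preparation was 1.21 on the log2 CPM scale for the NucleoSpin and Illumina libraries and 0.82 for the TRIZOL and BGISEQ-500 libraries. NAC lowered Hmox1 (log2 fold change -0.45, SE 0.12, adjusted p = 0.011; 46.8 ± 4.77 CPM, SD, n = 2). That call was lost without NAC replicate 1 (-0.35, adjusted p = 0.14) and in limma on log2(FPKM + 1) (-0.40, adjusted p = 0.061) or log2(FPKM + 0.1) (-0.41, adjusted p = 0.059), whereas the rise with PQ held in each of the 15 alternative settings. Against NAC, Hmox1 was 2.79-fold higher in PQ (log2 fold change 1.48, SE 0.12, adjusted p = 3.6e-08).

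Blvrb (chr7:28232997-28251163 on mm9, plus strand) encodes biliverdin reductase B, also known as a flavin reductase. It went the other way, with 22.6 and 23.6 CPM in control, 18.1 and 21.6 in PQ, and 28.5 and 28.1 in NAC. Neither the difference with PQ (log2 fold change -0.22, SE 0.14, edgeR adjusted p = 0.31) nor that with NAC (0.29, SE 0.14, adjusted p = 0.14) passed the test, but PQ was lower than NAC (-0.51, SE 0.14, adjusted p = 0.0077). Without PQ replicate 1 (-0.39, adjusted p = 0.13), without NAC replicate 1 (-0.50, adjusted p = 0.052) and with the labelled preparation as a covariate (-0.44, adjusted p = 0.05) this call was lost. Set against each other per length, the FPKM of Hmox1 was 1.42 and 1.46 times that of Blvrb in the control libraries, 4.10 and 2.81 times in PQ, and 0.791 and 0.927 times in NAC.

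Of the reductases, Srxn1 (chr2:151931252-151937112 on mm9, plus strand), whose product sulfiredoxin repairs overoxidized peroxiredoxins, rose with PQ and fell with NAC, as Hmox1 did. It had 442 and 572 counts in control, 893 and 837 in PQ, and 385 and 400 in NAC, and the 3 groups did not overlap. PQ raised it 1.66-fold (51.9 ± 8.34 against 86.3 ± 1.50 CPM, SD, n = 2; log2 fold change 0.73, SE 0.12, edgeR adjusted p = 0.00022), in each of the 15 alternative settings and by 0.89 and 0.60 log2 CPM within the NucleoSpin and TRIZOL preparations. With NAC it was lower (37.7 ± 2.78 CPM; log2 fold change -0.46, SE 0.12, adjusted p = 0.01). The call with NAC was lost without control replicate 2 (-0.29, adjusted p = 0.13), without NAC replicate 1 (-0.39, adjusted p = 0.12) and in limma on log2(FPKM + 1) (-0.38, adjusted p = 0.064) or log2(FPKM + 0.1) (adjusted p = 0.061). Against NAC, the log2 fold change in PQ was 1.20 (SE 0.12, adjusted p = 4.2e-07), a 2.29-fold difference.

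Txnrd1 (chr10:82296696-82360469 on mm9, plus strand), the cytosolic thioredoxin reductase, had 200.2 and 203.5 CPM in control, 264 and 253 in PQ, and 196 and 183 in NAC. PQ stood above both other groups, and the NAC libraries lay just under the controls. The rise with PQ was small and narrow in error, 1.28-fold (log2 fold change 0.36, SE 0.09, edgeR adjusted p = 0.0099), with 0.40 and 0.31 log2 CPM in the NucleoSpin and TRIZOL preparations. It was lost only without PQ replicate 1 (0.33, adjusted p = 0.12) among the 15 settings. With NAC the log2 fold change was -0.09 (95% interval -0.27 to 0.09, adjusted p = 0.53), and between PQ and NAC it was 0.45 (SE 0.09, adjusted p = 0.00092).

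Nqo1 (chr8:109912125-109927106 on mm9, minus strand), a quinone reductase often used as a readout of NRF2 activity, was scarcely expressed. It had 21 and 31 counts in control, 40 and 62 in PQ, and 36 and 22 in NAC. Both PQ libraries were above every control and NAC library, but counting error is wide at this depth: the exact Poisson 95% interval was 28.6 to 54.5 counts for PQ replicate 1 and 21.1 to 44.0 for control replicate 2, and it covers counting error only. The log2 fold change of 0.94 with PQ (SE 0.33) narrowly missed the threshold in edgeR (adjusted p = 0.053). It passed in 5 of the 15 alternative settings, among them those without control replicate 2 (1.22, adjusted p = 0.036) and without PQ replicate 1 (1.28, adjusted p = 0.034). It also passed with library totals alone (0.96, adjusted p = 0.046), with no filter (0.93, adjusted p = 0.011) and with the labelled preparation as a covariate (0.94, adjusted p = 0.031). Without PQ replicate 2 the value was 0.52 (adjusted p = 0.45). With NAC the value was 0.06 (95% interval -0.65 to 0.77, adjusted p = 0.93). PQ was higher than NAC (0.88, SE 0.32, adjusted p = 0.045), a call lost without PQ replicate 2 (0.46, adjusted p = 0.45), without NAC replicate 2 (0.61, adjusted p = 0.27), in DESeq2 (adjusted p = 0.14) and in limma on log2(FPKM + 1) (adjusted p = 0.074) or log2(FPKM + 0.1) (adjusted p = 0.08).

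Abcc1 (chr16:14361651-14475830 on mm9, plus strand) encodes MRP1, a pump that exports glutathione conjugates and oxidized glutathione. It had 576 and 678 counts in control, 606 and 634 in PQ, and 363 and 367 in NAC. Control and PQ overlapped, with a log2 fold change of -0.05 (95% interval -0.27 to 0.17, edgeR adjusted p = 0.8), whereas both NAC libraries were far below the other 4. In NAC the level was 0.546 times that of control (64.2 ± 6.05 against 35.1 ± 1.91 CPM, SD, n = 2; log2 fold change -0.87, SE 0.12, adjusted p = 2.3e-05). Among the 10 genes this was the largest fall with NAC, and it was called in each of the 15 alternative settings (log2 fold change -0.97 to -0.73). Within the TRIZOL and BGISEQ-500 preparation alone, the mean of the NAC libraries was lower than control replicate 2 by a log2 CPM difference of -0.96. Abcc1 in PQ was 1.77-fold that in NAC (0.82, SE 0.12, adjusted p = 2.5e-05).

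Osgin1 (chr8:121958024-121970156 on mm9, plus strand), an oxidative stress induced growth inhibitor, was the least abundant of the 10 genes. It had 20 and 29 counts in control, 69 and 33 in PQ, and 14 and 21 in NAC. The call with PQ (log2 fold change 1.01, SE 0.35, edgeR adjusted p = 0.049) rested on PQ replicate 1, without which the value was 0.46 (adjusted p = 0.6). It was also lost without control replicate 1 (0.79, adjusted p = 0.19), without NAC replicate 2 (1.01, adjusted p = 0.051), under the filterByExpr filter (adjusted p = 0.052), in DESeq2 (adjusted p = 0.16) and in limma on log2(FPKM + 1) (0.62, adjusted p = 0.12) or log2(FPKM + 0.1) (0.92, adjusted p = 0.15). The labelled preparations differed most for this gene, with 1.57 log2 CPM in the NucleoSpin and Illumina libraries and 0.22 in the TRIZOL and BGISEQ-500 libraries. With NAC the value was -0.58 (95% interval -1.39 to 0.24, adjusted p = 0.38). PQ was higher than NAC (1.58, SE 0.37, adjusted p = 0.0028), which was lost without PQ replicate 1 (1.03, adjusted p = 0.11).

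**Figure D3:**
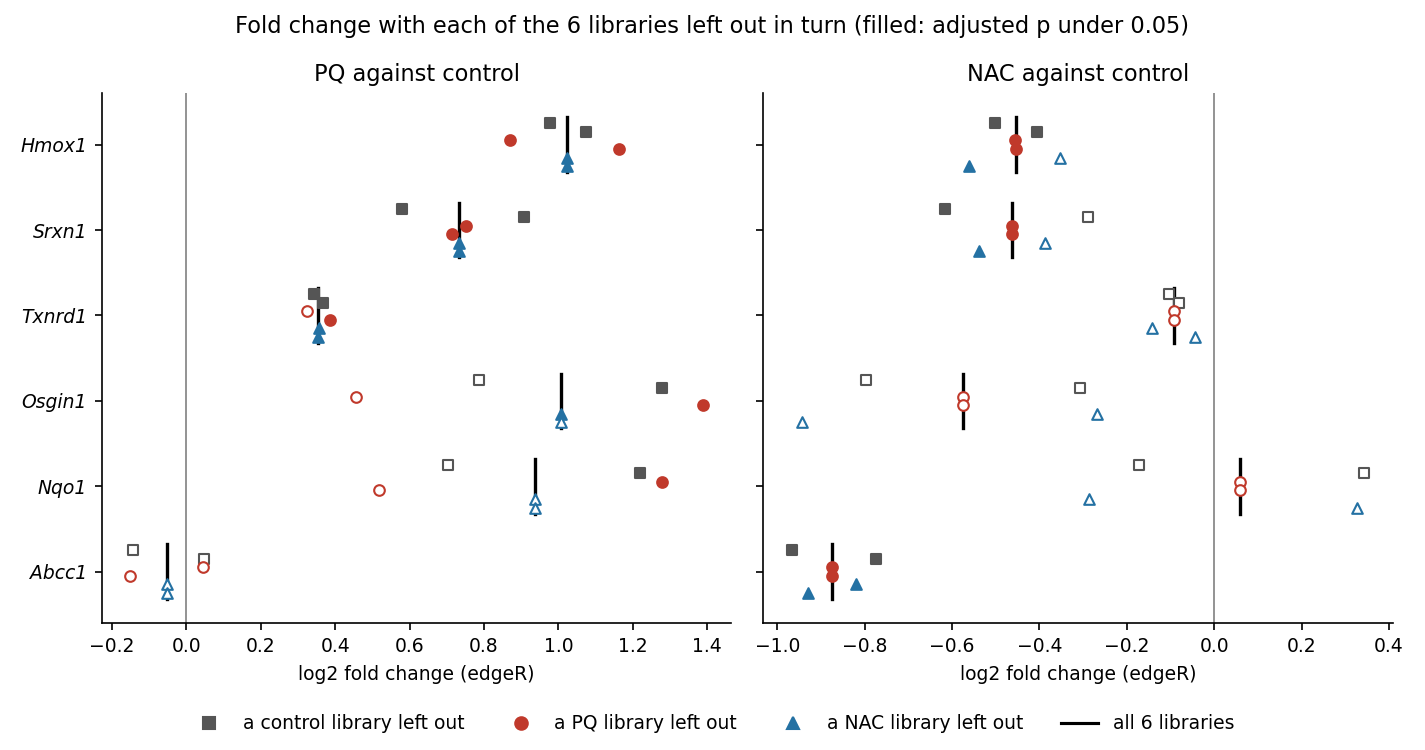
Log2 fold change in edgeR of 6 of the genes with each of the 6 libraries left out in turn (symbols; filled where the adjusted p is under 0.05) and with all 6 (black lines). The values of Hmox1 in PQ against control stay between 0.87 and 1.16 and all are filled, whereas those of Osgin1 run from 0.46 to 1.39 and those of Nqo1 from 0.52 to 1.28 and only part of them are filled.

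Other genes that act on NRF2 were examined as a list of 16, of which 13 were tested. With PQ, 3 were called higher (Sqstm1, Mafk and Bach1) and 0 lower, and the same count and genes were called with NAC. For the lower direction, edgeR at an unadjusted p under 0.05 gave 1 with PQ and 2 with NAC, and DESeq2 and limma called 0. Of all genes tested, 9.76% were called higher and 9.45% lower with PQ, and 9.01% and 9.64% with NAC. The list's median log2 fold change was 0.08 with PQ and 0.09 with NAC. Sqstm1, whose product p62 can displace NRF2 from KEAP1, had 258 and 265 CPM in control, 497 and 429.5 in PQ, and 353 and 369 in NAC. Both treatments stood above control, by log2 fold changes of 0.82 (SE 0.10, edgeR adjusted p = 9.3e-06) and 0.46 (SE 0.10, adjusted p = 0.0017). PQ was also above NAC (0.36, SE 0.09, adjusted p = 0.0064), except without PQ replicate 1 (0.25, adjusted p = 0.14), without NAC replicate 1 (0.33, adjusted p = 0.066) or with the labelled preparation as a covariate (0.32, adjusted p = 0.052).

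Bach1, a repressor that competes with NRF2 at AREs and at Hmox1, was higher by 0.42 with PQ (SE 0.11, edgeR adjusted p = 0.011) and 0.42 with NAC (SE 0.11, adjusted p = 0.011). Its call was lost without PQ replicate 1 in the first comparison (0.39, adjusted p = 0.11) and without NAC replicate 1 (0.40, adjusted p = 0.079) or 2 (0.43, adjusted p = 0.051) in the other. Mafk, a small MAF, was higher by 0.83 with PQ (SE 0.23, adjusted p = 0.014) and 0.72 with NAC (SE 0.23, adjusted p = 0.031). With PQ its call was lost without control replicate 1 (adjusted p = 0.092), without PQ replicate 1 (adjusted p = 0.2) and in DESeq2 (adjusted p = 0.056). With NAC it was lost without control replicate 1 (adjusted p = 0.17) and either NAC library (adjusted p = 0.072 and 0.16), in DESeq2 (adjusted p = 0.12) and in both limma fits (adjusted p = 0.056 and 0.051). Between PQ and NAC, 2 of the 13 were higher (Sqstm1 and Dpp3) and 1 lower (Palb2), with a median of 0.08. Of all genes tested, 16.0% were called higher and 15.7% lower in that comparison. Dpp3 (0.64, SE 0.13, adjusted p = 0.00095) and Palb2 (-0.64, SE 0.16, adjusted p = 0.0051) encode proteins that bind KEAP1 and are named here after their values were seen. The list's 3 genes higher with PQ became 1 without PQ replicate 1, the 3 with NAC became 1 without either NAC library, and the 2 between PQ and NAC became 1 without PQ replicate 1 or NAC replicate 1. With NAC, 1 gene was called lower without either control library or without NAC replicate 2.

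A wider list of 38 NRF2 target genes not among the 10 was read next, and 29 of them were tested. With PQ, 14 of the 29 were called higher and 2 lower (Slc6a9 and Tkt), with a median log2 fold change of 0.29. With NAC, 2 were called higher (Txn1 and Akr1b10) and 9 lower, with a median of -0.15. Between PQ and NAC, 16 were higher in PQ and 2 lower (Txn1 and Cbr3), with a median of 0.41. The medians over all genes tested were -0.001, -0.002 and 0. Of all these genes, 9.76% were called higher and 9.45% lower with PQ, and 9.01% and 9.64% with NAC. Between PQ and NAC the shares were 16.0% and 15.7%. The count of 14 fell to 8 without control replicate 1, 4 without PQ replicate 1 and 9 without PQ replicate 2, while the 16 between PQ and NAC stayed between 13 and 16 with each library left out. The 2 lower with PQ became 1 without control replicate 2 or either PQ library, as Tkt (-0.29, SE 0.09, adjusted p = 0.031) lost its call (adjusted p = 0.11, 0.18 and 0.13), as it did in both limma fits (adjusted p = 0.088 and 0.089) and with the labelled preparation as a covariate (adjusted p = 0.053). The 2 higher with NAC became 1 without control replicate 1 or either NAC library, and the 2 lower in PQ than in NAC became 1 without PQ replicate 1 or NAC replicate 2, where Cbr3 (-0.46, SE 0.13, adjusted p = 0.0091) had adjusted p = 0.076 and 0.12. Tkt, Txn1 and Cbr3 are named after their values were seen. The list was written with earlier results of these data known, and its genes share reads in part: the counts of Slc7a11, Abcc4, Ugt1a6a, Akr1b8, Akr1b10, Gstm1, Gstp1, Cbr1 and Cbr3 were fractional in 4 to 6 libraries, so reads shared with other genes make their values uncertain.

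**Figure D4:**
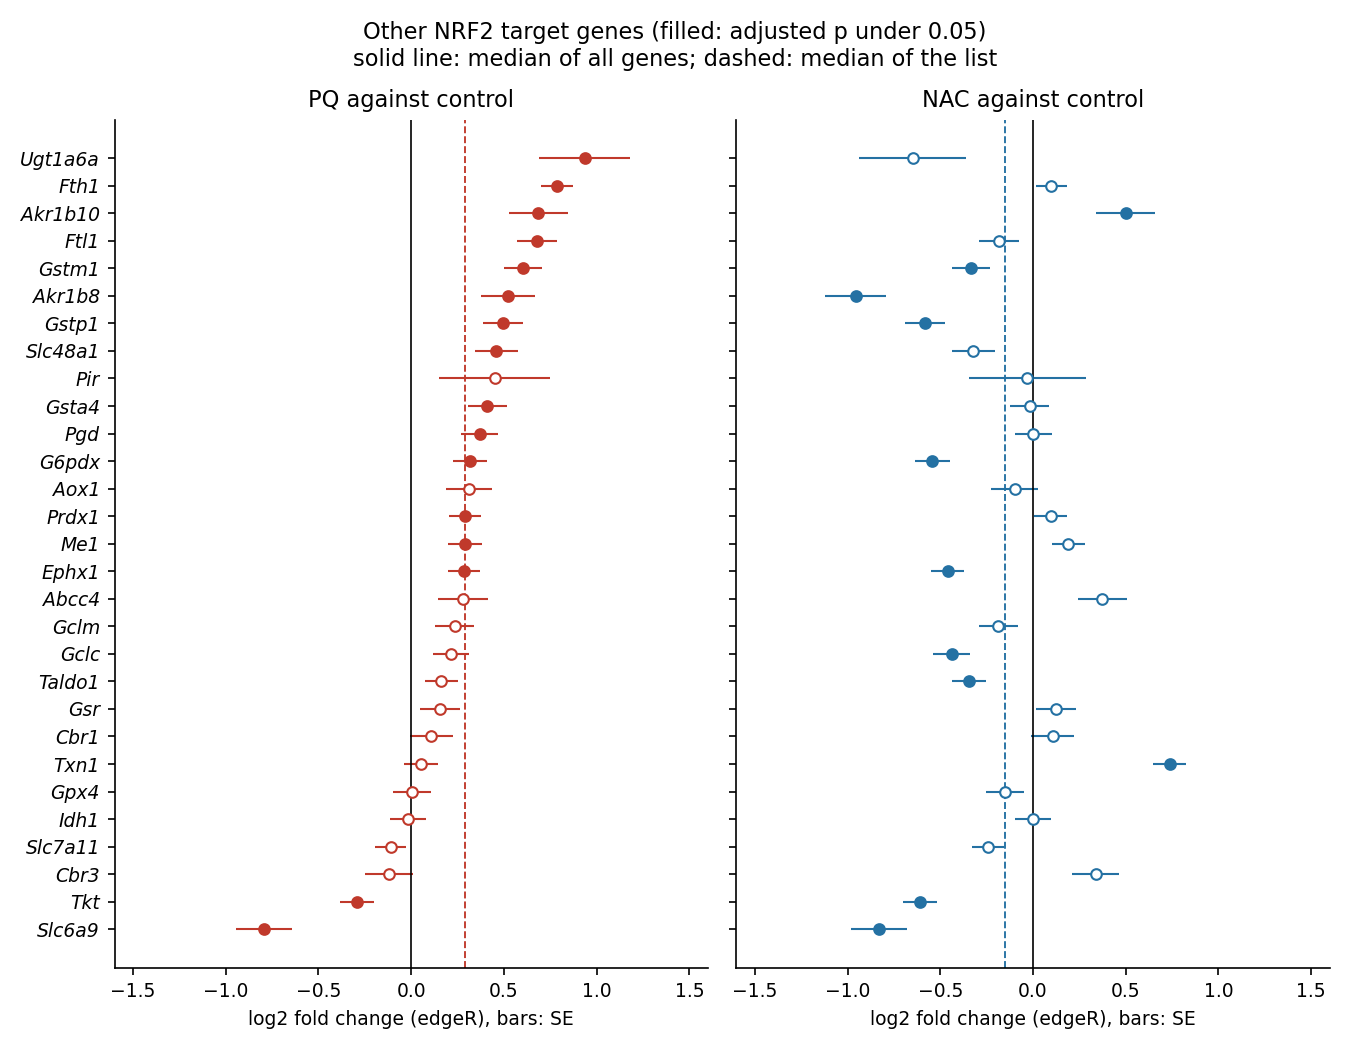
Log2 fold change of the 29 other NRF2 target genes tested in PQ against control (left) and NAC against control (right), ordered by the left panel, with bars of 1 standard error from edgeR; filled points have an adjusted p under 0.05. The list's median (dashed) is 0.29 on the left and -0.15 on the right, and the median of all genes (solid) is -0.001 and -0.002.

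Ferritin, which stores the iron that heme breakdown releases, stood out among the larger rises with PQ. Fth1, the heavy chain, had 2552 and 2550 CPM in control, 4599 and 4191 in PQ, and 2723 and 2745 in NAC, and was 1.72-fold higher with PQ (log2 fold change 0.79, SE 0.09, edgeR adjusted p = 5.9e-06). Ftl1, the light chain, named after its values were seen, was higher by 0.68 (SE 0.11, adjusted p = 0.00027). Ugt1a6a, a UDP-glucuronosyltransferase, had the largest rise on the list, 0.94 (SE 0.25, adjusted p = 0.011), and its call was lost without control replicate 2 (adjusted p = 0.077), without PQ replicate 1 (adjusted p = 0.21), in DESeq2 (adjusted p = 0.056) and in both limma fits (adjusted p = 0.052 and 0.073). Slc6a9, the glycine transporter, was lower with PQ (-0.79, SE 0.15, adjusted p = 0.0011) and with NAC (-0.83, SE 0.15, adjusted p = 0.00057).

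The aldo-keto reductases, paralogs of each other, differed in direction with NAC. Akr1b8 had 16.2 and 17.5 CPM in control, 22.8 and 25.7 in PQ, and 8.17 and 9.23 in NAC, and was lower with NAC (log2 fold change -0.96, SE 0.16, edgeR adjusted p = 0.00034). With PQ it was higher (0.52, SE 0.15, adjusted p = 0.017), a call lost without control replicate 1 (adjusted p = 0.079), without PQ replicate 2 (adjusted p = 0.14) and in DESeq2 (adjusted p = 0.064). Akr1b10 was higher with PQ (0.69, SE 0.16, adjusted p = 0.005), except without PQ replicate 1 (adjusted p = 0.079), and with NAC (0.50, SE 0.16, adjusted p = 0.035). The latter call was lost without control replicate 1 (adjusted p = 0.15), without NAC replicate 1 (adjusted p = 0.22) or 2 (adjusted p = 0.063), in DESeq2 (adjusted p = 0.12) and with the labelled preparation as a covariate (adjusted p = 0.072). Txn1, the thioredoxin that TXNRD1 reduces, was named after its values were seen: it was higher with NAC (0.74, SE 0.09, adjusted p = 1.1e-05) and lower in PQ than in NAC (-0.69, SE 0.09, adjusted p = 1.3e-05). Gclc, the catalytic subunit of the enzyme that starts glutathione synthesis, was likewise named afterwards and was lower with NAC (-0.44, SE 0.10, adjusted p = 0.0039).

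A list of 17 genes of heme synthesis, transport and breakdown other than Hmox1 and Blvrb was also read. Of the 17, 16 were tested, and with PQ 0 were called higher and 1 lower (Alad), with NAC 1 higher (Slc25a38) and 1 lower (Alad), and between PQ and NAC 0 in either direction in edgeR. At an unadjusted p under 0.05 the last comparison gave 1 higher and 1 lower, and the rise direction with PQ gave 0, while DESeq2 and limma on log2(FPKM + 1) called 0 in these cases. Over all genes tested, edgeR called 9.76% higher and 9.45% lower with PQ, and 9.01% and 9.64% with NAC. Between PQ and NAC the shares were 16.0% and 15.7%. The list's medians in the 3 comparisons were -0.04, -0.04 and -0.06. Alad, an early enzyme of heme synthesis, was lower with PQ (-0.36, SE 0.12, adjusted p = 0.038) and with NAC (-0.41, SE 0.12, adjusted p = 0.02). With PQ, its call was lost when any library but control replicate 1 was left out (adjusted p up to 0.25), and with NAC without control replicate 2 (adjusted p = 0.089) or either NAC library (adjusted p = 0.14 and 0.075). Slc25a38, a mitochondrial glycine carrier, was higher with NAC (0.66, SE 0.21, adjusted p = 0.037), except when either control or either NAC library was left out (adjusted p between 0.086 and 0.15). DESeq2 and the fit with the labelled preparation as a covariate called neither gene, and both limma fits called Alad in neither comparison. Alad was also lost with PQ under library totals alone (adjusted p = 0.061) and with only the 4 libraries compared (adjusted p = 0.054). The count of heme genes called lower was 2 in each of these comparisons without control replicate 1. Slc48a1, a heme transporter counted with the NRF2 targets above and named after its values were seen, was higher with PQ (0.46, SE 0.12, adjusted p = 0.0084), a call lost without control replicate 1 (adjusted p = 0.074) or PQ replicate 1 (0.34, adjusted p = 0.16), and higher in PQ than in NAC (0.78, SE 0.12, adjusted p = 4.5e-05). Hmox2, the constitutive heme oxygenase, had 53.5 and 60.2 CPM in control, 59.1 and 61.7 in PQ, and 53.3 and 50.9 in NAC and was not called in any of the 3 comparisons.

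Among 15 other reductases and related genes, all tested, 0 were called higher with PQ and 1 lower (Sesn2), and 0 higher with NAC and 3 lower (Sesn2, Cyb5r1 and Txnrd3). For the higher direction, edgeR at an unadjusted p under 0.05 gave 0 with PQ and 1 with NAC, and DESeq2 and limma called 0. Over all genes tested, edgeR called 9.76% higher and 9.45% lower with PQ, and 9.01% and 9.64% with NAC. The list medians were -0.03 and -0.09. Sesn2, a stress-induced sestrin, had the largest difference on this list, -1.35 with NAC (SE 0.16, edgeR adjusted p = 7.9e-06). With PQ its value was -0.50 (SE 0.15, adjusted p = 0.028), and this call was lost without control replicate 1 (-0.21, adjusted p = 0.41), without PQ replicate 1 (adjusted p = 0.079) or 2 (adjusted p = 0.16), in DESeq2 (adjusted p = 0.056) and in both limma fits (adjusted p = 0.12 in each). Cyb5r1, a cytochrome b5 reductase with fractional counts in 6 libraries, was lower with NAC (-0.90, SE 0.23, adjusted p = 0.0083), but not without control replicate 1 (-0.36, adjusted p = 0.26) or NAC replicate 1 (-0.75, adjusted p = 0.096), nor in limma (adjusted p = 0.074 and 0.068) or with the preparation covariate (-0.56, adjusted p = 0.079). Txnrd3, a further thioredoxin reductase named after its values were seen, was lower with NAC at the edge of the threshold (-0.54, SE 0.18, adjusted p = 0.049) and lost its call when any 1 of the 6 libraries was left out (adjusted p between 0.061 and 0.23). Between PQ and NAC, 2 were higher (Sesn2 and Aifm2) and 1 lower (Sesn1), with a median of 0.04. Of all genes tested, 16.0% were called higher and 15.7% lower there. Aifm2 (0.59, SE 0.17, adjusted p = 0.014) lost its call without PQ replicate 1 (adjusted p = 0.13), without NAC replicate 1 (adjusted p = 0.21) and with the preparation covariate (adjusted p = 0.062), and Sesn1 (-0.56, SE 0.13, adjusted p = 0.0029) without PQ replicate 1 (adjusted p = 0.063); both are named after their values were seen. The count of reductases called lower with PQ was 2 without control replicate 2, the 3 called lower with NAC became 1 without control replicate 1 or NAC replicate 1, and 1 was called higher with NAC without control replicate 2.

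Of 13 other export pumps and related genes, 8 were tested. With PQ, 2 were called higher (Abca1 and Abcc12) and 0 lower, with 0 lower as well at an unadjusted p under 0.05 in edgeR and in DESeq2 and limma. With NAC, 1 was higher (Abca1) and 1 lower (Abcg2), and between PQ and NAC 3 were higher (Abca1, Abcc12 and Abcg2). Over all genes tested, edgeR called 9.76% higher and 9.45% lower with PQ, and 9.01% and 9.64% with NAC. Between PQ and NAC the shares were 16.0% and 15.7%. The list's medians in the 3 comparisons were 0.13, 0.28 and -0.11. Abca1, a cholesterol exporter, was higher with PQ (1.01, SE 0.12, edgeR adjusted p = 1.4e-05) and with NAC (0.70, SE 0.12, adjusted p = 0.0004). Abcg2, a pump known for marking stem cells, was lower with NAC (-0.55, SE 0.10, adjusted p = 0.00046), the same direction as Abcc1. Abcc12, a relative of Abcc1, was higher with PQ (0.39, SE 0.11, adjusted p = 0.013), except without PQ replicate 1 (0.29, adjusted p = 0.22). In PQ against NAC, Abca1 (0.31, SE 0.11, adjusted p = 0.044) lost its call without PQ replicate 1 (0.19, adjusted p = 0.38) or either NAC library (adjusted p = 0.16 and 0.14), under library totals alone (adjusted p = 0.063), in DESeq2 (adjusted p = 0.11), in both limma fits (adjusted p = 0.2 and 0.21) and with the preparation covariate (adjusted p = 0.15). Abcg2 (0.39, SE 0.10, adjusted p = 0.0054) lost it without PQ replicate 2 (adjusted p = 0.091), and Abcc12 (0.39, SE 0.10, adjusted p = 0.008) without PQ replicate 1 (adjusted p = 0.15), without NAC replicate 2 (adjusted p = 0.056) and with the covariate (adjusted p = 0.052).

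Genes whose profile over the 6 libraries lay nearest to Srxn1, Hmox1 and Nqo1 were listed by the root mean square difference of log2 CPM centred on each gene's mean, against 11716 other genes. For Srxn1 the nearest were Gstt1 (0.017), Zfp52 (0.047) and Nhsl2 (0.070), beside a root mean square of 0.503 for the profile of Srxn1 itself. Gstt1, a glutathione S-transferase, had log2 fold changes of 0.73 with PQ (SE 0.13, edgeR adjusted p = 0.00056) and -0.45 with NAC (SE 0.14, adjusted p = 0.026), and the latter call was lost without control replicate 2 (adjusted p = 0.2), without NAC replicate 1 (adjusted p = 0.21) or 2 (adjusted p = 0.051), in DESeq2 (adjusted p = 0.061) and in both limma fits (adjusted p = 0.055 and 0.054). For Hmox1 the nearest were Hspb8 (0.069), Gas6 (0.075) and Ptp4a3 (0.086), beside 0.623 for Hmox1. Hspb8, a small heat shock protein, had log2 fold changes of 0.97 (SE 0.10, adjusted p = 4.3e-06) and -0.43 (SE 0.11, adjusted p = 0.0063), and the fall with NAC was lost without control replicate 2 (adjusted p = 0.051) and without NAC replicate 1 (adjusted p = 0.081). For Nqo1 the nearest, Nkain2 (0.198), Csn3 (0.206) and Fosb (0.213), lay much farther off, beside 0.504 for Nqo1. Nearness over 6 libraries is a description and says nothing of shared control.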

How the data were processed

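RNA-seq of 6 libraries of mouse NSPCs (2 control, 2 PQ and 2 NAC) was analysed from the gene tables that the authors deposited. In each deposited table a gene has an expected count, in which reads that fit several genes are divided among them; 78.6 to 79.1% of these in a library were whole numbers. The authors also deposited FPKM, in which length and library size are already divided out. The tables also give a deposited gene length, used only to describe them. Genes without an entry were taken as 0. The submitters' processing notes name TopHat2 2.0.11, Cufflinks 2.1.1 and mm9 for control replicate 1 and PQ replicate 1, and HISAT2 2.0.4, Bowtie2 2.2.5, RSEM and mm10 for the other 4 libraries, whereas the methods name TopHat, Cufflinks and mm9 for all and a stranded mRNA kit for the libraries, and the columns are of the kind RSEM writes. These accounts conflict, so which tools made each table is not settled. Whether strand was used in counting is not given in the sources used here.

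The NCBI gene table gave a symbol for 99.7% of 17254 genes. Gene positions are from GENCODE vM1 on mm9 and promoters from RefSeq on GRCm38.p6, and positions on the 2 builds cannot be set against each other. Expected counts were rounded to whole numbers and tested with edgeR 4.0.16 in R 4.3.3 (TMM, quasi-likelihood, all 6 libraries, no covariate) for the 11717 genes whose FPKM averaged 1 or more, and p-values were adjusted over all of them by Benjamini-Hochberg (threshold 0.05). Each standard error is the size of the log2 fold change over the square root of F, and 95% intervals are the log2 fold change with a normal range of standard errors. CPM values are TMM-scaled. The alternatives were DESeq2 size factors, library totals alone, no filter, filterByExpr, DESeq2 1.42.0, limma 3.58.1 on log2(FPKM + 1) and log2(FPKM + 0.1), the labelled preparation as a covariate, only the 4 libraries compared, each library left out, and differences within a labelled preparation. With 1 library left out, the lone library of a group is assumed to vary like the other groups. The code was tested on simulated data.

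The members and lists were chosen with earlier results of these data known. Beside the 10 genes, the text names from each list up to 4 genes called with the largest change in PQ against control and up to 2 in NAC against control, the 3 nearest profiles for 3 of the genes, and genes said to be named after their values were seen. No pair of replicates was close enough to be 1 library deposited again (chi-square per degree of freedom against counting noise of 6.91 in control, 4.11 in PQ and 4.75 in NAC), and in control and PQ the pair also differs in labelled preparation.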

Additional observations from a re-analysis of the deposited data

How the results depend on the processing

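Libraries were not paired by culture because the labels carry no replicate numbers. The labelled preparation joins 1 control and 1 PQ library in each of 2 preparations and was fitted as a covariate. In PQ against control that fit called 2067 genes, in place of 2250, and 5 of the 10 genes, in place of 4. Of the genes called, 2250 in PQ against control ranged from 866 (without PQ replicate 1) to 2206 with each library left out, 2186 in NAC against control from 1286 (without NAC replicate 1; 1427 without NAC replicate 2) to 2126, and 3708 in PQ against NAC from 2343 (without PQ replicate 1; 2407 without NAC replicate 1) to 4207. Of the 10 genes, those called with each library left out numbered 3 to 5 in PQ against control, 1 to 3 in NAC against control (1 without NAC replicate 1) and 5 to 8 in PQ against NAC (5 without PQ replicate 1). In NAC against control, limma on log2(FPKM + 1) and on log2(FPKM + 0.1) called 1 in place of 3, Abcc1. Directions turned only for log2 fold changes that were not called. With each library left out, Keap1 ran from -0.218 to 0.021 in PQ against control, -0.188 to 0.051 in NAC against control and -0.118 to 0.060 in PQ against NAC, Abcc1 from -0.151 to 0.048 in PQ against control, Nqo1 from -0.286 to 0.344 in NAC against control, and Mafg from -0.073 to 0.042 in PQ against NAC. With the labelled preparation as a covariate, Nqo1 in NAC against control was -0.236 and Keap1 in PQ against NAC was 0.007. The rises of Hmox1 and Srxn1 with PQ and the fall of Abcc1 with NAC passed in all 15 refits, as did the differences of Hmox1, Srxn1, Txnrd1 and Abcc1 between PQ and NAC. Leaving out a library leaves fewer samples. Otherwise the cause was not tested. At these depths Nqo1 and Osgin1, with 14 to 69 counts, are the least certain of the 10 genes. Only 2 libraries per group were measured, and both NAC libraries share 1 labelled preparation, so for NAC against control the NucleoSpin and Illumina preparation gives no value.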
